A study of Mus musculus with 40 samples.

Results

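Muscle in which the brake on the kinase complex mTORC1 had been removed was compared after 3 days of rapamycin, an mTORC1 inhibitor, and after vehicle. The comparison used 10 of the 40 libraries of the series, chosen by their sample labels: 5 from 3-month-old TSCmKO mice given rapamycin (3mTSCmKO+RM) and 5 from 3-month-old TSCmKO mice given vehicle (3mTSCmKO). All 10 came from whole EDL, the extensor digitorum longus of the hindlimb, which consists mainly of fast fibers, with 5 mice per group in the study's description. The strain label was Tsc1tm1Djk/J in every group. TSCmKO mice lack Tsc1 in skeletal muscle fibers, where the Cre recombinase is expressed, and other cells of the muscle keep their floxed alleles. Control mice (CON) were littermates that carried the floxed Tsc1 alleles without Cre. Vehicle or rapamycin was injected intraperitoneally. The labels give 4 mg per kg and the study text a higher daily dose, so the dose is uncertain. The study describes TSCmKO mice of this age as having a weak phenotype or none. For context, the same genes were also examined in 3mCON and 3mCON+RM and in 9-month-old 9mTSCmKO and 9mTSCmKO+RM, with 5 libraries each.

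TSC1 and TSC2 form a complex that keeps the small GTPase Rheb inactive, and active Rheb switches on mTORC1 at the lysosome. Amino acids reach mTORC1 through the Rag GTPases, which are controlled by amino acid sensing proteins such as sestrins and CASTOR proteins and by the folliculin complex. Active mTORC1 promotes protein synthesis, ribosome production, nucleotide and lipid synthesis and the ATF4 program of amino acid supply, and it restrains autophagy and lysosome biogenesis. It also feeds back on insulin receptor signalling, so that sustained activity lowers AKT signalling to the FoxO factors, which drive the muscle ubiquitin ligases of atrophy. Rapamycin blocks mTORC1 through the immunophilin FKBP12.

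Total counts were 14682801 to 28404440 per library in 3mTSCmKO and 16817608 to 26313907 in 3mTSCmKO+RM. Of the 22844 genes in the table, 13543 were tested, those at 1 CPM or above in at least 5 of the 40 libraries, where CPM is a count scaled to a common library size. Fast fiber markers such as Ckm and Acta1 defined the tissue in every library, with summed levels of 112600.0 to 195600.0 CPM in 3mTSCmKO and 176500.0 to 199300.0 CPM in 3mTSCmKO+RM. The summed slow fiber markers were at 148 to 649 and 90.3 to 467 CPM. A pair of vehicle libraries stood apart. In 3mTSCmKO replicate 3, hemoglobin and other erythroid transcripts reached 9036 CPM, against 368.9 to 1597 CPM in the other 9 libraries. In 3mTSCmKO replicate 4, the neutrophil gene S100a9 was at 20.2 CPM, against 3.24 CPM in replicate 3 and 0.314 to 1.37 CPM in the other 8. Counts that lead a paragraph were therefore repeated without both of these libraries.

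The deleted gene was examined first. Tsc1 (ENSMUSG00000026812, chromosome 2, 28641228 to 28691167) was at 30.6, 30.7, 28.1, 26.5 and 30.4 CPM in the 5 libraries of 3mTSCmKO, in replicate order, and at 18.7, 19.1, 21.3, 23.2 and 21.9 CPM in 3mTSCmKO+RM. All 10 values lay below the 84.1 to 134 CPM of 3mCON. The residual level was lower still after rapamycin (log2 fold change -0.49, SE 0.17, adjusted p = 0.0311), with no overlap between the groups. This call was lost when any 1 of 5 libraries was left out (3mTSCmKO replicates 1, 2 and 5, 3mTSCmKO+RM replicates 1 and 2). Without 3mTSCmKO+RM replicate 1, the log2 fold change was -0.45 (adjusted p = 0.0706).

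Rapamycin changed 3196 genes in 3mTSCmKO, 23.6% of those tested, by edgeR's quasi-likelihood test with Benjamini-Hochberg adjustment. Of these, 1435 (10.6% of the genes tested) rose and 1761 (13%) fell, and the median log2 fold change over all genes was 0.01. Without the 2 libraries that stood apart, 2256 genes passed, 967 higher and 1289 lower. Under upper-quartile scaling the higher share of the calls was 55.7% (1810 of 3248), against 44.9% with the main scaling, and the median of all genes moved to 0.06. Which direction held more genes thus depended on the scaling. A change of at least 2-fold was called for 255 genes that rose (1.88%) and 291 that fell (2.15%). The 5 and 5 libraries did not overlap for 1290 genes with higher values after rapamycin (9.53%) and for 1569 with lower values (11.6%). For comparison, rapamycin changed 92 genes (0.679%) in 3mCON and 4410 genes (32.6%) in 9mTSCmKO.

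**Figure D1:**
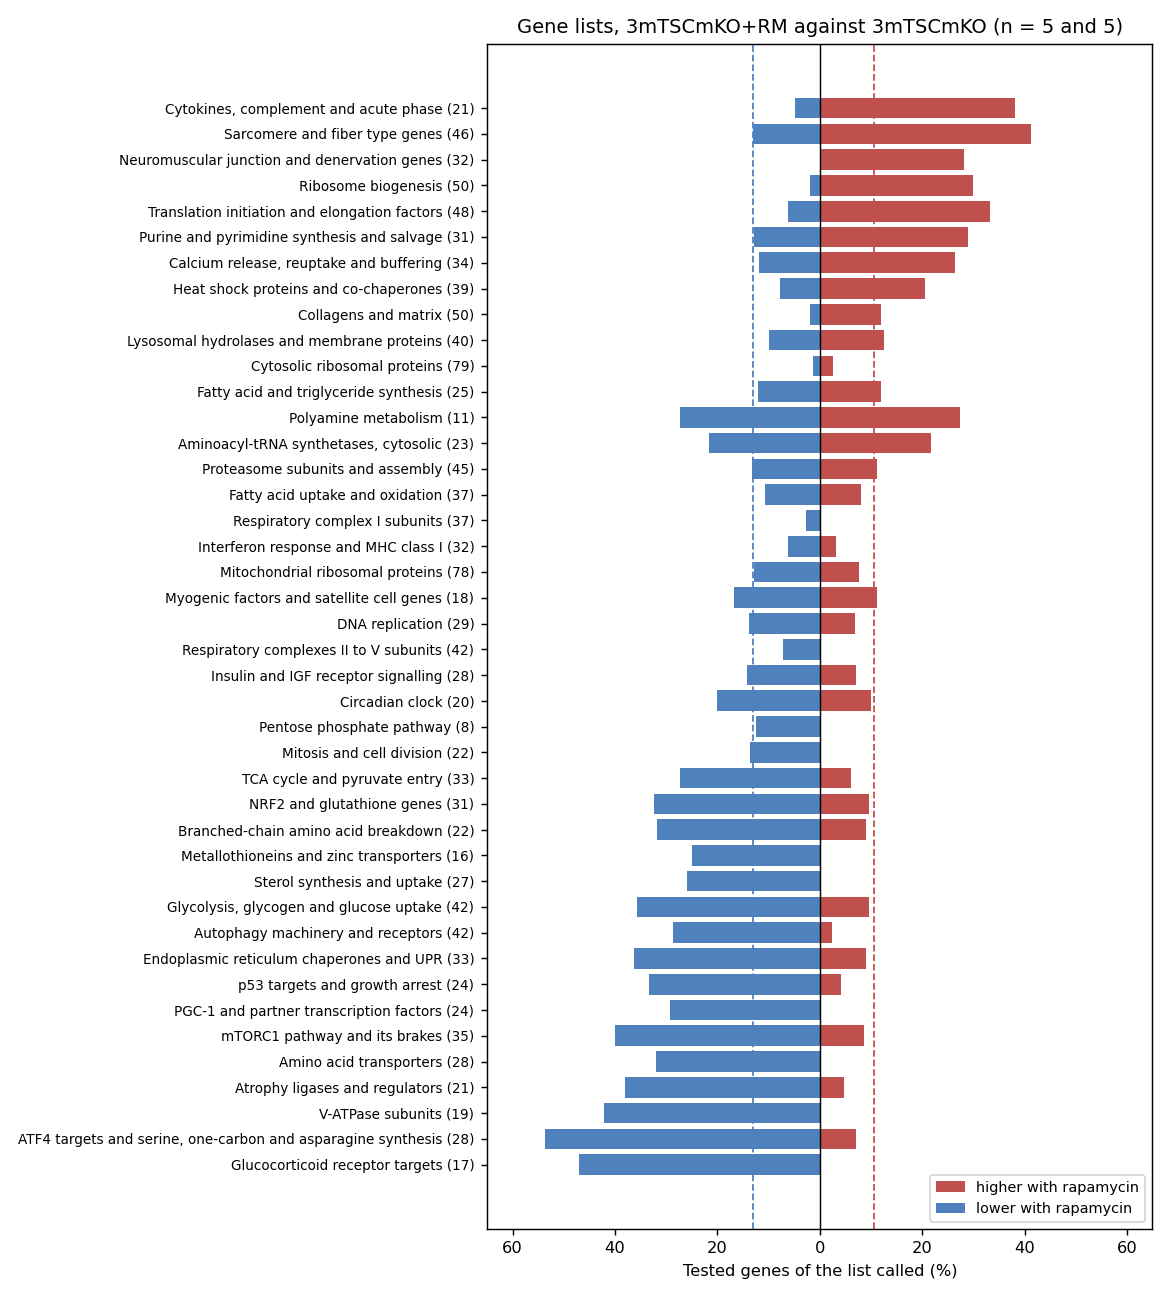
Share of the tested genes of each list that were called lower (left, blue) or higher (right, red) in 3mTSCmKO+RM than in 3mTSCmKO, in percent, with the number of tested genes in parentheses and the shares over all genes as dashed lines. The longest bars to the left belong to ATF4 targets (53.6%) and glucocorticoid receptor targets (47.1%), and the longest to the right to sarcomere and fiber type genes (41.3%).

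The genes with the largest changes included many without a place in the lists described here. Slc47a1, which encodes an organic cation exporter of the plasma membrane, was at 5.73, 4.44, 7.81, 7.81 and 8.60 CPM in 3mTSCmKO and at 31.2, 39.5, 36.7, 42 and 32.9 CPM in 3mTSCmKO+RM (log2 fold change 2.39, SE 0.18, adjusted p = 8.76e-13). Every treated library was above every vehicle library, and the treated values also exceeded the 20.03 to 29.1 CPM of 3mCON. Aqp4, the water channel of fast fibers, rose from 0.198, 0.457, 0.257, 1.31 and 0.756 to 7.23, 8.02, 6.63, 6.08 and 6.64 CPM (log2 fold change 3.35, SE 0.30, adjusted p = 7.47e-11). It stayed far below 3mCON, at 49.1 to 102 CPM. Other large rises were those of the lincRNA 2310020H05Rik (3.63, adjusted p = 1.47e-08), the signalling adaptor Bex1 (2.26, adjusted p = 7.07e-09), the lincRNA Epb41l4aos (2.27, adjusted p = 1.74e-06), the zinc-finger repressor Klf10 (2.11, adjusted p = 1.86e-07), the metalloprotease Adamts20 (2.08, adjusted p = 3.44e-09) and Tceal7 (1.99, adjusted p = 1.58e-07). Bex1 shares 29.8% of its 31-base sequences with other genes, mainly Bex4, so its counts are less certain.

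Among the falls, the antisense transcript C130080G10Rik went from 3.82, 26.7, 28.8, 7.42 and 32 to 0.603, 0.756, 1.02, 0.550 and 1.01 CPM (log2 fold change -4.66, SE 0.47, adjusted p = 1.39e-09), although it shares 37.2% of its 31-base sequences with other genes, mainly A530058N18Rik. Gm10851, another antisense transcript, fell from a range of 7.20 to 13.5 CPM to one of 0.485 to 0.949 CPM (-3.80, adjusted p = 1.5e-08). Htra4, a secreted serine protease, was at 25.7 to 207 CPM before and 7.23 to 20.2 CPM after rapamycin (-2.96, adjusted p = 5.42e-08). Rasd2, a small GTPase known as Rhes, fell from a range of 150.4 to 273 CPM to one of 27.4 to 50.02 CPM (-2.44, adjusted p = 6.55e-07) and remained above the 3.08 to 17.2 CPM of 3mCON. Nmrk2, a nicotinamide riboside kinase of muscle, was at 151, 155, 294, 262 and 330.1 CPM in 3mTSCmKO and 49.8, 51.4, 62.5, 30.6 and 18.7 CPM in 3mTSCmKO+RM (log2 fold change -2.48, SE 0.40, adjusted p = 1.5e-05). Its treated values lay below the 105 to 190.4 CPM of 3mCON. 8430408G22Rik (-2.69, adjusted p = 2.21e-05) and the arrestin-domain gene Arrdc2 (-2.48, adjusted p = 0.000404) fell as well.

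Within the mTORC1 pathway more genes fell than rose. Of 35 tested genes of the mTORC1 pathway and its brakes, 14 fell and 3 rose (median log2 fold change -0.27), the latter 1 without 3mTSCmKO replicate 1 or 3mTSCmKO+RM replicate 1. Ddit4 (ENSMUSG00000020108, chromosome 10, 59949669 to 59951834), known as REDD1, an inhibitor that acts through TSC1 and TSC2, was at 17.7, 116, 70.1, 269.5 and 175 CPM in 3mTSCmKO and 8.16, 17.7, 19.7, 6.24 and 16.8 CPM in 3mTSCmKO+RM (log2 fold change -3.25, SE 0.54, adjusted p = 2.79e-05). The vehicle libraries spread widely, and 3mTSCmKO replicate 1 lay within the treated range while the other 4 were above it. 3mCON held 6.05 to 23.6 CPM, a range that overlapped that of the treated libraries. Its paralog Ddit4l (ENSMUSG00000046818, chromosome 3, 137621612 to 137628333) fell from a range of 277 to 458 CPM to one of 69.3 to 222 CPM (-1.43, adjusted p = 2.62e-05).

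The 3 sestrins, which bind GATOR2 and inhibit mTORC1, fell without overlap. Sesn1 (ENSMUSG00000038332, chromosome 10, 41809935 to 41908424) was at 113, 88.8, 101, 152 and 123 CPM in 3mTSCmKO and 48.6, 30.9, 49.4, 49.2 and 43.2 CPM in 3mTSCmKO+RM (log2 fold change -1.39, SE 0.19, adjusted p = 4.99e-07). Sesn3 (ENSMUSG00000032009, chromosome 9, 14275067 to 14333101) went from 197, 201, 171, 123 and 164 to 64.3, 66.6, 79.2, 59.7 and 50.8 CPM (log2 fold change -1.42, SE 0.20, adjusted p = 1.18e-06). The treated values overlapped those of 3mCON, at 45 to 54.1 CPM for Sesn1 and 39.5 to 54.3 CPM for Sesn3. Sesn2 (ENSMUSG00000028893, chromosome 4, 132492032 to 132510501) was the least abundant by TPM, a unit scaled by transcript length, with 3.72 to 6.46 TPM in 3mTSCmKO against 48.8 to 94.4 TPM for Sesn1 and 26.2 to 42.7 TPM for Sesn3. It fell from a range of 6.65 to 12.4 CPM to one of 3.72 to 5.05 CPM (-1.04, adjusted p = 4.01e-05). Gatsl2 (ENSMUSG00000015944, chromosome 5, 134099711 to 134144343), the older symbol of Castor2, a relative of the arginine sensor CASTOR1, was at 537, 601, 509.6, 351 and 635 CPM in 3mTSCmKO and 186, 149, 128, 152 and 168 CPM in 3mTSCmKO+RM (log2 fold change -1.75, SE 0.16, adjusted p = 7.47e-11). Every vehicle library lay well above every treated one, and the treated values overlapped the 124 to 159 CPM of 3mCON.

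The folliculin complex activates the GTPases RagC and RagD. Fnip1 (ENSMUSG00000035992, chromosome 11, 54438199 to 54518235), the partner of folliculin, fell from 276, 290.3, 246, 281 and 213 CPM to 93.3, 75.8, 146, 119 and 107 CPM (log2 fold change -1.27, SE 0.21, adjusted p = 1.38e-05). All treated libraries lay below the 166 to 240.3 CPM of 3mCON. Folliculin itself (Flcn) (-0.59, adjusted p = 0.00085) and the GTPase Rragd (-0.78, adjusted p = 0.000822) also fell. After rapamycin both lay below 3mCON, with log2 differences of -1.06 (adjusted p = 2.58e-07) for Flcn and -0.75 (adjusted p = 0.00189) for Rragd. Among the mTORC1 substrates and the kinase, Rps6kb1, which encodes S6 kinase 1, fell (-0.43, adjusted p = 0.000336), as did the translational repressor Eif4ebp2 (-0.61, adjusted p = 0.0101). Mtor was at 57.5, 71.7, 54.9, 50.8 and 59.6 CPM in 3mTSCmKO and 87.2, 85.9, 85.8, 101 and 87.2 CPM in 3mTSCmKO+RM (log2 fold change 0.60, SE 0.18, adjusted p = 0.0108). That rise had no overlap between groups but gave 0.51 (adjusted p = 0.0932) without the 2 libraries that stood apart. The other translational repressor, Eif4ebp1 (0.19, adjusted p = 0.483), and Rheb (0.29, adjusted p = 0.178) did not pass the test.

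Of 28 tested genes of insulin and IGF receptor signalling, 4 fell and 2 rose (median -0.06), a share close to that of all genes. Akt1 fell from a range of 77.2 to 89.1 CPM to one of 39.7 to 64.5 CPM (-0.67, adjusted p = 0.000115), and Akt2 (-0.34, adjusted p = 0.00866) fell too. The receptor substrates were at 59.7 to 123 and 105 to 147 CPM for Irs1 (0.42, adjusted p = 0.262) and at 30.9 to 44.4 and 20.3 to 30.8 CPM for Irs2 (-0.45, adjusted p = 0.0767). Neither passed the test, although Irs2 passed when only the 2 groups were fitted, at -0.45 (adjusted p = 0.014). Igf1, the growth factor, rose (0.89, adjusted p = 0.0102) with overlapping libraries. Foxo1 (0.18, adjusted p = 0.722) and Foxo3 (-0.18, adjusted p = 0.598) did not pass.

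**Figure D2:**
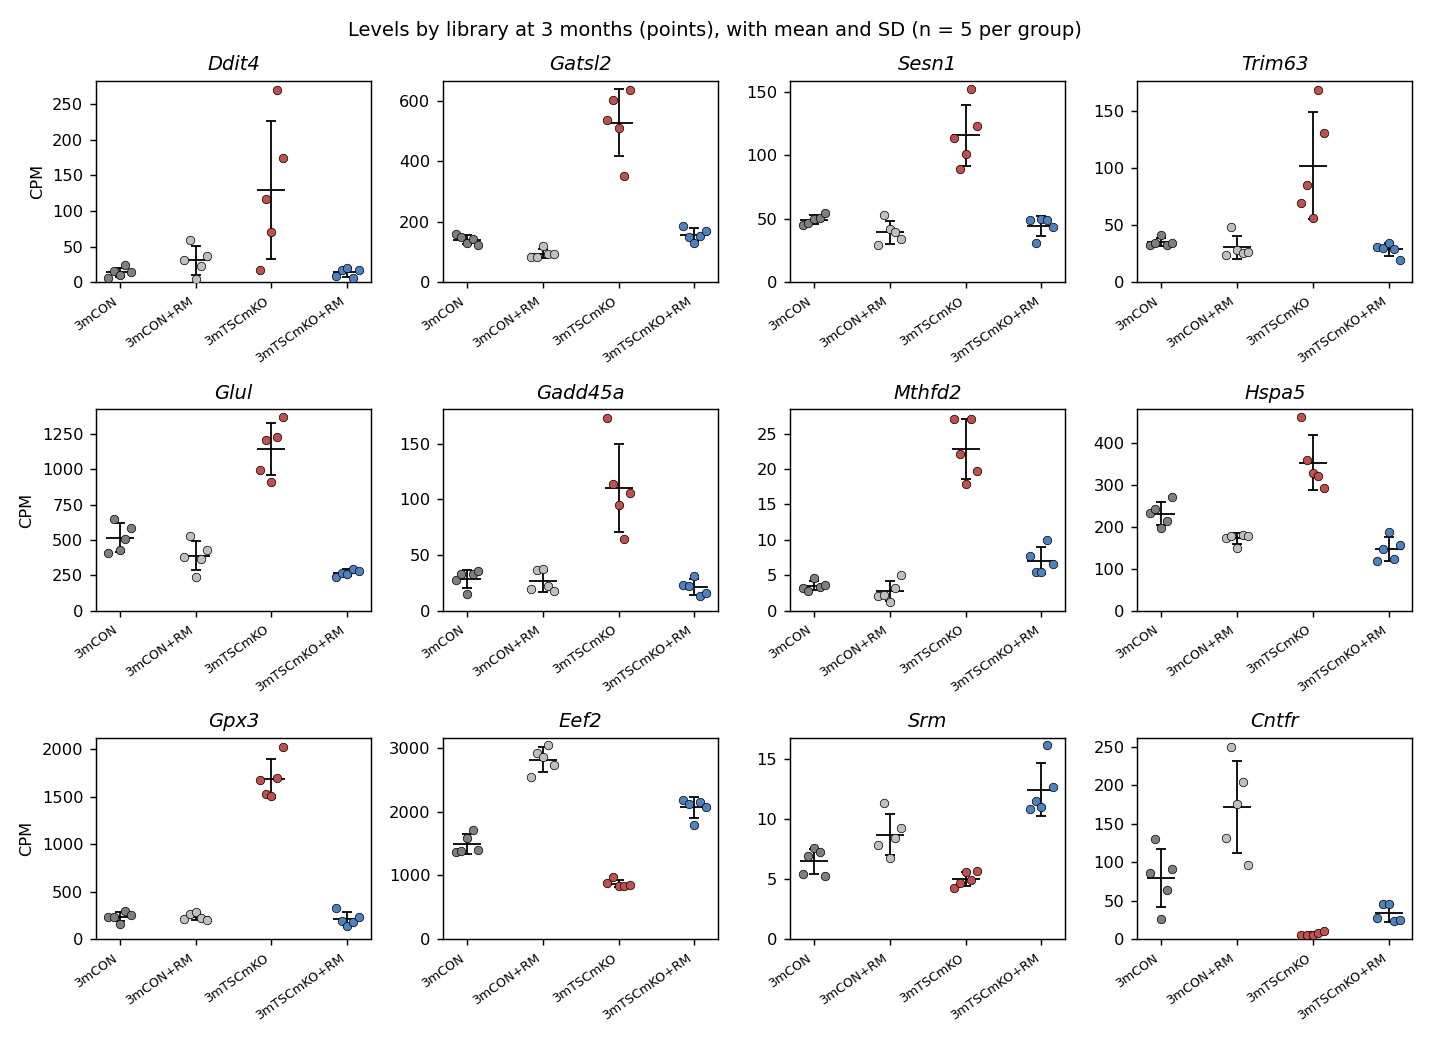
Levels of 12 genes in CPM in each of the 20 libraries of 3-month mice (points), with the mean and SD of 5 libraries per group. In 3mTSCmKO, Ddit4, Gatsl2, Sesn1, Trim63, Glul, Gadd45a, Mthfd2, Hspa5 and Gpx3 are high and Eef2, Srm and Cntfr low, and the 3mTSCmKO+RM points lie apart from them except for 1 Ddit4 library.

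Of 21 tested atrophy ligases and regulators, 8 fell and 1 rose (median -0.20). Trim63 (ENSMUSG00000028834, chromosome 4, 134315120 to 134329629), which encodes the sarcomere ligase MuRF1, was at 69.3, 84.9, 56.6, 169 and 131 CPM in 3mTSCmKO and 30.4, 29.99, 34.2, 28.8 and 19.7 CPM in 3mTSCmKO+RM (log2 fold change -1.84, SE 0.26, adjusted p = 1.51e-06). Fbxo32 (ENSMUSG00000022358, chromosome 15, 58175879 to 58214932), which encodes atrogin-1, went from 1352, 1396, 856, 951 and 1118 to 534, 430.4, 614, 242 and 409 CPM (log2 fold change -1.35, SE 0.23, adjusted p = 3.27e-05). Neither gene overlapped between the groups, and the treated ranges overlapped the 32.5 to 41.2 and 427 to 698 CPM of 3mCON. With transcript length taken into account, the range of Fbxo32 lay higher but overlapped that of Trim63, at 227 to 384 TPM against 91.1 to 284 TPM in 3mTSCmKO. The ligases Fbxo30, known as MUSA1 (-1.04, adjusted p = 7.61e-07), Traf6 (-0.79, adjusted p = 4.07e-05) and Trim55, known as MuRF2 (-1.01, adjusted p = 4.27e-09), fell without overlap as well. The one rise was that of Fst, follistatin, an inhibitor of myostatin (1.10, adjusted p = 0.00222).

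The promoter window of Trim63 is shown because it was the only one of the list that held the FoxO element searched for. The element TGTTTAC, in either strand, stood in 1 of 16 windows of the list and in 3.28% of all tested genes with a window of 250 bases before to 50 bases after the start. The window (chr4:134314870-134315169, plus strand, RefSeq, GRCm38.p6) is written with the element in capitals, 194 bases before the start, and a match is a description of letters only.
Trim63: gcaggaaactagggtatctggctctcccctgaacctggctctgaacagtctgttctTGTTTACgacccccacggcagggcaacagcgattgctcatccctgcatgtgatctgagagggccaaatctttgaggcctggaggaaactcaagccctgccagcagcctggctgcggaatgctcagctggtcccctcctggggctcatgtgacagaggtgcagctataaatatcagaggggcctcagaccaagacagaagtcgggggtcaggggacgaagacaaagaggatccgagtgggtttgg

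Glucocorticoid receptor targets had the lowest median of all lists. Of 17 tested, 8 fell (median -0.90) and 0 rose (0 at an unadjusted p below 0.05, 0 by DESeq2), with 5 lower without any 1 of 3mTSCmKO replicate 5 and 3mTSCmKO+RM replicates 4 and 5. Glul (ENSMUSG00000026473, chromosome 1, 153899944 to 153909723), glutamine synthetase, was at 995, 1204, 913, 1227 and 1366 CPM in 3mTSCmKO and 238, 268, 261, 298 and 279 CPM in 3mTSCmKO+RM (log2 fold change -2.09, SE 0.20, adjusted p = 5.53e-10). The treated values lay well below the 409 to 651 CPM of 3mCON. Klf15 (ENSMUSG00000030087, chromosome 6, 90462576 to 90475238), a transcription factor of amino acid breakdown, went from 51.3, 64.8, 49, 75.4 and 81.4 to 28.5, 28.6, 27.1, 22 and 19.5 CPM (log2 fold change -1.36, SE 0.17, adjusted p = 1.32e-07). Sgk1, a kinase related to AKT, fell from a range of 236 to 368 CPM to one of 103 to 173 CPM (-1.16, adjusted p = 0.000128), and Tsc22d3, known as GILZ, from a range of 379 to 743 CPM to one of 237 to 369 CPM (-0.99, adjusted p = 0.000473). Ddit4 is on this list too. Per1, which is also a clock gene, fell (-1.03, adjusted p = 0.0279), but not without 3mTSCmKO+RM replicate 1, where it gave -0.88 (adjusted p = 0.0809). The call was also lost without 3mTSCmKO replicate 5 and without 3mTSCmKO+RM replicates 4 and 5. Fkbp5, a chaperone of the receptor, was at 40.2 to 113 and 30.03 to 63.7 CPM and did not pass (-0.59, adjusted p = 0.22). The half-site TGTTCT stood in 2 of 14 windows of the list (Sgk1 and Tsc22d3), against 15.3% of all genes with a window.

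Of 24 tested p53 targets and growth arrest genes, 8 fell and 1 rose (median -0.14). Gadd45a (ENSMUSG00000036390, chromosome 6, 67035096 to 67037457), a stress gene raised in denervated and wasting muscle, was at 173, 114, 95.3, 64.4 and 106 CPM in 3mTSCmKO and 23, 22.5, 31.3, 13.5 and 16.1 CPM in 3mTSCmKO+RM (log2 fold change -2.38, SE 0.27, adjusted p = 3.19e-08). The vehicle and treated libraries lay far apart, and the treated values overlapped the 14.5 to 35.4 CPM of 3mCON. Gadd45g fell from a range of 20.6 to 111 CPM to one of 4.75 to 21.2 CPM (-2.50, adjusted p = 6.15e-05) with overlap, and Trp53inp2, an autophagy regulator also called DOR, fell without overlap (-1.19, adjusted p = 1.3e-06). Cdkn1a, the cell cycle inhibitor p21, was at 36 to 76.4 and 27.1 to 66.1 CPM and did not pass (-0.14, adjusted p = 0.725). Aen, a nuclease that is a p53 target, rose (0.79, adjusted p = 5.31e-06).

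The ATF4 program, which supplies serine, one-carbon units and asparagine, fell more broadly than any other list by share. Of 28 tested genes, 15 fell and 2 rose (median -0.73). Mthfd2 (ENSMUSG00000005667, chromosome 6, 83305691 to 83325908), a mitochondrial folate enzyme, was at 27.1, 22.1, 17.9, 27.1 and 19.8 CPM in 3mTSCmKO and 7.74, 5.38, 5.50, 9.97 and 6.64 CPM in 3mTSCmKO+RM (log2 fold change -1.69, SE 0.22, adjusted p = 2.12e-07). The groups did not overlap, and the treated level was still above the 2.82 to 4.63 CPM of 3mCON (0.99, adjusted p = 0.00199). Vldlr (ENSMUSG00000024924, chromosome 19, 27216484 to 27254231), a lipoprotein receptor, went from 1743, 1644, 1449.99, 1224 and 1463 to 619, 474, 619, 518 and 569 CPM (log2 fold change -1.43, SE 0.17, adjusted p = 3.37e-08). Cebpg (ENSMUSG00000056216, chromosome 7, 35046422 to 35056573), the dimer partner of ATF4, was at 148, 114, 117, 144 and 113 CPM and 54, 53, 67.2, 56.4 and 55.4 CPM (log2 fold change -1.15, SE 0.13, adjusted p = 7.6e-09). For both genes the treated values were below those of 3mCON, at 734 to 1012 and 77.9 to 92.5 CPM.

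The transcription factor Atf5 (-1.08, adjusted p = 2.91e-07), the transsulfuration enzyme Cth (-1.58, adjusted p = 0.000424), the serine synthesis enzyme Psph (-0.93, adjusted p = 4.1e-06) and the pseudokinase Trib3 (-1.21, adjusted p = 0.01) fell without overlap. Psat1, of serine synthesis, fell from a range of 2.56 to 7.13 CPM to one of 1.39 to 3.30 CPM (-1.14, adjusted p = 0.000666). Asns, asparagine synthetase, was low in all libraries, at 2.44, 2.87, 2.42, 4.51 and 1.22 CPM in 3mTSCmKO and 0.881, 1.01, 1.24, 1.53 and 1.48 CPM in 3mTSCmKO+RM (log2 fold change -1.14, SE 0.29, adjusted p = 0.00303). Its call was lost without the 2 libraries that stood apart, at -0.79 (adjusted p = 0.0898). Atf4 itself was at 147 to 184 and 156 to 176 CPM (0.00, adjusted p = 0.998). Aldh1l2, another mitochondrial folate enzyme, went the other way (0.80, adjusted p = 0.000962).

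Of 28 tested amino acid transporters, 9 fell (median -0.24) and 0 rose (0 at an unadjusted p below 0.05, 0 by DESeq2). Slc43a1, a carrier of large neutral amino acids, fell from a range of 26.3 to 44.3 CPM to one of 10.7 to 19.3 CPM (-1.39, adjusted p = 2.35e-06). Slc38a2, the sodium-coupled carrier SNAT2, fell from a range of 128 to 195 CPM to one of 62.3 to 92.8 CPM (-1.02, adjusted p = 1.66e-05). Slc1a1, a glutamate carrier, went from 38, 28.5, 31, 31.4 and 26.5 to 14.3, 13.2, 17.3, 20.5 and 18.6 CPM (log2 fold change -0.89, SE 0.20, adjusted p = 0.000733), and each treated library remained above the 4.42 to 8.45 CPM of 3mCON. Of 22 tested genes of branched-chain amino acid breakdown, 7 fell and 2 rose (median -0.21). Bcat2 (ENSMUSG00000030826, chromosome 7, 45570153 to 45589711), the mitochondrial transaminase that opens this pathway, was at 80.2, 96.5, 84.5, 108 and 89.2 CPM in 3mTSCmKO and 33.4, 29.6, 16.9, 23.3 and 29.5 CPM in 3mTSCmKO+RM (log2 fold change -1.79, SE 0.17, adjusted p = 2.9e-10). The treated values lay below the 46.6 to 68.1 CPM of 3mCON. Oxct1, of ketone body use, (-0.85, adjusted p = 4.39e-07) and Dbt, a subunit of the branched-chain keto acid dehydrogenase, (-0.69, adjusted p = 0.00308) fell as well.

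The cytosolic tRNA synthetases split. Of 23 tested, 5 rose and 5 fell (median -0.01), or 3 fell without 3mTSCmKO replicate 2 and 8 without 3mTSCmKO replicate 4. Sars, the seryl-tRNA synthetase, fell from 156, 172, 142, 141 and 151 to 100.2, 108, 105, 109.95 and 105 CPM (log2 fold change -0.53, SE 0.09, adjusted p = 1.35e-05). Gars (-0.46, adjusted p = 0.000761) and Aars (-0.43, adjusted p = 0.011) also fell, the latter not without 3mTSCmKO replicate 2, which gave -0.31 (adjusted p = 0.0789). Vars, the valyl-tRNA synthetase, rose from 49.9, 54.5, 42.6, 36.5 and 41.9 to 73.3, 86.5, 83.4, 97.7 and 96.1 CPM (log2 fold change 0.96, SE 0.12, adjusted p = 1.87e-07). Qars (0.53, adjusted p = 0.000138), Kars (0.51, adjusted p = 8.07e-05) and Dars (0.38, adjusted p = 0.0067) rose without overlap. Without the 2 libraries that stood apart, 8 of the list fell.

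Promoter windows of 4 genes that fell are shown for 1 short motif that was counted over both lists. The core of the element bound by ATF4 with a C/EBP partner, TGATGNAA in either strand, stood in 2.84% of all genes with a window. It stood in 2 of the 3 synthetase genes that fell and had a window (Aars and Gars) and in 0 of the 4 that rose, and in 5 of 15 windows of the whole synthetase list. In the ATF4 list it stood in 7 of 24 windows, among them 4 of 13 genes that fell (Asns, Chac1, Trib3 and Vldlr) and in the 1 gene that rose (Pycr1). These windows (RefSeq, GRCm38.p6) carry the motif in capitals, 23 bases before the start in Asns (chr6:7693160-7693459, minus strand), 15 after it in Trib3 (chr2:152344011-152344310, minus strand), 112 before and 10 after it in Aars (chr8:111033592-111033891, plus strand) and 30 before it in Gars (chr6:55037751-55038050, plus strand).
Asns: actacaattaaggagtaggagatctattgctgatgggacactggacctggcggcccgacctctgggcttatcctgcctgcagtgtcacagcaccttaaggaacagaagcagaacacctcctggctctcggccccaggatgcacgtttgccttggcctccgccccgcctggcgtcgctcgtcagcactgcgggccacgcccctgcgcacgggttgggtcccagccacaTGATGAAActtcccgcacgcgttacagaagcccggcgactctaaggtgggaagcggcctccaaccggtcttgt
Trib3: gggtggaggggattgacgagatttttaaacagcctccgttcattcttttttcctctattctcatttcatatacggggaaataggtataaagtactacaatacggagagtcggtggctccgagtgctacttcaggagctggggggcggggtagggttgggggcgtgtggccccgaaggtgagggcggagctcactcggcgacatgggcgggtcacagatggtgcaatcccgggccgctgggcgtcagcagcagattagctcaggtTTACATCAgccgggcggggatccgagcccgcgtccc
Aars: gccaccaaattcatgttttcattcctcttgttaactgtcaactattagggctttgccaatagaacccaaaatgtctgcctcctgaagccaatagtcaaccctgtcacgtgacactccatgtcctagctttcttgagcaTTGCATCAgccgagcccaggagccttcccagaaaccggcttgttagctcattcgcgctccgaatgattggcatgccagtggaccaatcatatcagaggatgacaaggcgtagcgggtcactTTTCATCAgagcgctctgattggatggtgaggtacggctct
Gars: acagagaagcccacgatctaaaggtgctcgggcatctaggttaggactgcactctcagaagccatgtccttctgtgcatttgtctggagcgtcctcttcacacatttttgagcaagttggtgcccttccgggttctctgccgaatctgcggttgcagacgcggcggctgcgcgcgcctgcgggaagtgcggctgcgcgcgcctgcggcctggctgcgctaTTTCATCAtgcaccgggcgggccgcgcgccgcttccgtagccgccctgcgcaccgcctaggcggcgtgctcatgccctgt

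Of 33 tested genes of endoplasmic reticulum chaperones and of the unfolded protein response, 12 fell and 3 rose (median -0.29), none of the latter without the 2 libraries that stood apart. Hspa5 (ENSMUSG00000026864, chromosome 2, 34771970 to 34777547), which encodes BiP, the main chaperone of this compartment, was at 462, 359, 327, 322 and 292 CPM in 3mTSCmKO and 118, 146, 188, 123 and 157 CPM in 3mTSCmKO+RM (log2 fold change -1.27, SE 0.12, adjusted p = 2.92e-10). All treated libraries lay below the 197 to 269.9 CPM of 3mCON. Sdf2l1 (ENSMUSG00000022769, chromosome 16, 17130138 to 17132383), a BiP cofactor, went from 4.09, 3.98, 3.44, 4.83 and 3.49 to 0.927, 1.47, 1.24, 0.942 and 1.07 CPM (log2 fold change -1.81, SE 0.22, adjusted p = 4.54e-08). Selenos, of the degradation complex in this membrane, fell from a range of 28.4 to 34.3 CPM to one of 11.2 to 14 CPM (-1.34, adjusted p = 1.07e-10), and the secreted chaperone Manf from a range of 24 to 38.4 CPM to one of 10.8 to 15.4 CPM (-1.08, adjusted p = 2.18e-05). Xbp1 (ENSMUSG00000020484, chromosome 11, 5520659 to 5525893), a transcription factor of this response, was at 121, 106, 102, 87.8 and 98.1 CPM and 60.1, 54.6, 53.2, 68.5 and 57.2 CPM (log2 fold change -0.81, SE 0.10, adjusted p = 7.21e-08). Its treated values overlapped the 50.1 to 55.5 CPM of 3mCON. Counts per gene do not separate its spliced form. The disulfide isomerase P4hb rose (0.38, adjusted p = 0.012), and not without the 2 libraries that stood apart, which gave 0.35 (adjusted p = 0.0701).

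The stress element of these promoters, CCAAT followed by 9 bases of any kind and CCACG, in either strand, was chosen for the search after the values were seen. It stood in 0.183% of all genes with a window and in 8 of 26 of the list. It was in 4 of 9 genes that fell (Calr, Dnajc3, Hspa5 and Pdia6) and in 0 of 2 that rose. The windows of Hspa5 (chr2:34771840-34772139, plus strand, element 65 bases before the start) and of Calr (chr8:84846882-84847181, minus strand, 162 bases before the start) carry it in capitals. Calr encodes calreticulin, a chaperone, and fell (-0.41, adjusted p = 0.00901), but not without 3mTSCmKO replicate 1, at -0.31 (adjusted p = 0.0611).
Hspa5: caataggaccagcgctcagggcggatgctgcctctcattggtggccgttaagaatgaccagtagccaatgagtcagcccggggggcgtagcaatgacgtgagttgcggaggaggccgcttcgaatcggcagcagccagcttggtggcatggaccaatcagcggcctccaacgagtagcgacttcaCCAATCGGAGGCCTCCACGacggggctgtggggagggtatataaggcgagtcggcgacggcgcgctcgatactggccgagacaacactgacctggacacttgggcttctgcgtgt
Calr: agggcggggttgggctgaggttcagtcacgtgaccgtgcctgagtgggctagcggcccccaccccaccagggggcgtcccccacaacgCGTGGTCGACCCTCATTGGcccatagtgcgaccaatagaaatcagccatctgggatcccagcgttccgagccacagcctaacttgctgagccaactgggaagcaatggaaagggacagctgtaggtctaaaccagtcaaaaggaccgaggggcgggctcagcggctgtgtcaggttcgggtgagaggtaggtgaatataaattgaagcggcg

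Among cytosolic chaperones more genes passed as higher than as lower. Of 39 tested heat shock proteins and co-chaperones, 8 rose and 3 fell (median -0.03). Whether past the threshold or not, 18 log2 fold changes were above 0 and 21 below. Hsp90ab1, the constitutive HSP90, went from 1339.7, 1353, 938, 823 and 994 to 1526, 1903, 2099.6, 1867 and 1862 CPM (log2 fold change 0.76, SE 0.12, adjusted p = 5.96e-06). Cct4, a subunit of the actin-folding chaperonin, (0.81, adjusted p = 2.13e-06), the small heat shock protein Hspb6 (0.79, adjusted p = 0.0006) and Hspa1l (0.87, adjusted p = 3.54e-05) rose without overlap. Dnajb6, a co-chaperone of the Z-disc, fell (-0.57, adjusted p = 1.24e-05).

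Of 31 tested NRF2 and glutathione genes, 10 fell and 3 rose (median -0.04), and 6 fell without the 2 libraries that stood apart. Gpx3 (ENSMUSG00000018339, chromosome 11, 54902453 to 54910377), the secreted glutathione peroxidase, was at 1679, 1527, 1508, 1694 and 2023 CPM in 3mTSCmKO and 323, 195, 141, 178 and 229 CPM in 3mTSCmKO+RM (log2 fold change -2.99, SE 0.24, adjusted p = 6.93e-12). The treated libraries covered the range of 3mCON, at 162 to 295 CPM, and every vehicle library lay far above them. Gclc, the catalytic subunit of glutathione synthesis, fell from 27.8, 32.5, 27.2, 27.3 and 24.7 to 13.8, 16.8, 18.3, 16.7 and 14.5 CPM (log2 fold change -0.80, SE 0.11, adjusted p = 6.53e-07). Nqo1 (-0.89, adjusted p = 5.35e-05) and the thioredoxin reductase Txnrd1 (-0.78, adjusted p = 1.2e-05) fell without overlap. Nfe2l2, which encodes NRF2, was at 51.5 to 67.7 and 48.1 to 71.5 CPM (-0.04, adjusted p = 0.872).

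Of 42 tested autophagy genes, 12 fell and 1 rose (median -0.24). Sqstm1 (ENSMUSG00000015837, chromosome 11, 50199366 to 50210827), the cargo receptor p62, was at 1204, 1409.8, 925, 872 and 870.1 CPM in 3mTSCmKO and 452, 528, 596, 704 and 686 CPM in 3mTSCmKO+RM (log2 fold change -0.83, SE 0.13, adjusted p = 7.09e-06). Wipi1, which binds the forming autophagosome, went from 173, 160.3, 174, 178 and 166 to 90.6, 85.5, 97.2, 99 and 91.1 CPM (log2 fold change -0.88, SE 0.10, adjusted p = 2.85e-08). Both sets of treated libraries were apart from the vehicle libraries, and those of Wipi1 lay below the 106 to 139 CPM of 3mCON. Gabarapl1 (-0.70, adjusted p = 1.91e-05), the mitophagy receptor Bnip3 (-0.70, adjusted p = 0.000682) and Becn1 (-0.57, adjusted p = 1.76e-06) fell without overlap. Ulk1, the kinase that starts autophagy and an mTORC1 substrate, fell (-0.48, adjusted p = 0.011) with overlap.

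Of 19 tested V-ATPase subunits, 8 fell (median -0.28) and 0 rose (0 at an unadjusted p below 0.05, 0 by DESeq2). Atp6v1g1 (ENSMUSG00000039105, chromosome 4, 63544772 to 63550750) went from 182, 149.7, 169.97, 168 and 179 to 100.05, 82.1, 92.6, 80.9 and 94.2 CPM (log2 fold change -0.91, SE 0.19, adjusted p = 0.000287), a range that overlapped the 80.9 to 112 CPM of 3mCON. Atp6v1e1 (-0.64, adjusted p = 0.000319) and Atp6v0a1 (-0.61, adjusted p = 0.000178) fell without overlap. Lysosomal hydrolases and membrane proteins were mixed, with 5 higher and 4 lower of 40 (median 0.06, 10 higher under upper-quartile scaling, 2 lower without 3mTSCmKO replicate 2), shares close to those of all genes. Npc1, which exports cholesterol from lysosomes, was at 186, 218, 144, 211 and 173 CPM and 76.3, 62.3, 83.3, 66.4 and 79.1 CPM (log2 fold change -1.34, SE 0.19, adjusted p = 1.05e-06). Ctsl, the protease cathepsin L, fell (-0.97, adjusted p = 0.00019), while the hydrolases Hexa (0.53, adjusted p = 0.000643) and Sgsh (0.62, adjusted p = 0.00256) rose. Lamp1, a membrane protein of lysosomes, did not pass (-0.09, adjusted p = 0.567). Of the transcription factors for lysosome genes, Tfeb fell (-0.42, adjusted p = 0.00547) and Tfe3 did not pass (0.13, adjusted p = 0.433). Their E-box CACGTG, in either strand, stood in 15 of 31 windows of the lysosome list, against 11.6% of all genes. It was in the 2 genes that fell and had a window and in 3 of 4 that rose.

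Of 45 tested proteasome genes, 5 rose and 6 fell (median -0.02, 3 higher without the 2 libraries that stood apart), shares of 11.1% and 13.3% that were close to the 10.6% and 13% of all genes. Psme4, the activator PA200, fell from 1927, 1755, 1529, 1204 and 1381 to 713, 561, 785, 655 and 771 CPM (log2 fold change -1.16, SE 0.23, adjusted p = 0.000189). Nfe2l1, the transcription factor of proteasome genes, (-0.86, adjusted p = 1.2e-05) and the subunit Psmd8 (-0.63, adjusted p = 0.000219) fell as well. Psmd4, a ubiquitin receptor of the proteasome, rose from 190.4, 199.6, 159, 135 and 168 to 223, 282, 276, 319.7 and 314 CPM (log2 fold change 0.73, SE 0.13, adjusted p = 2.62e-05).

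**Figure D3:**
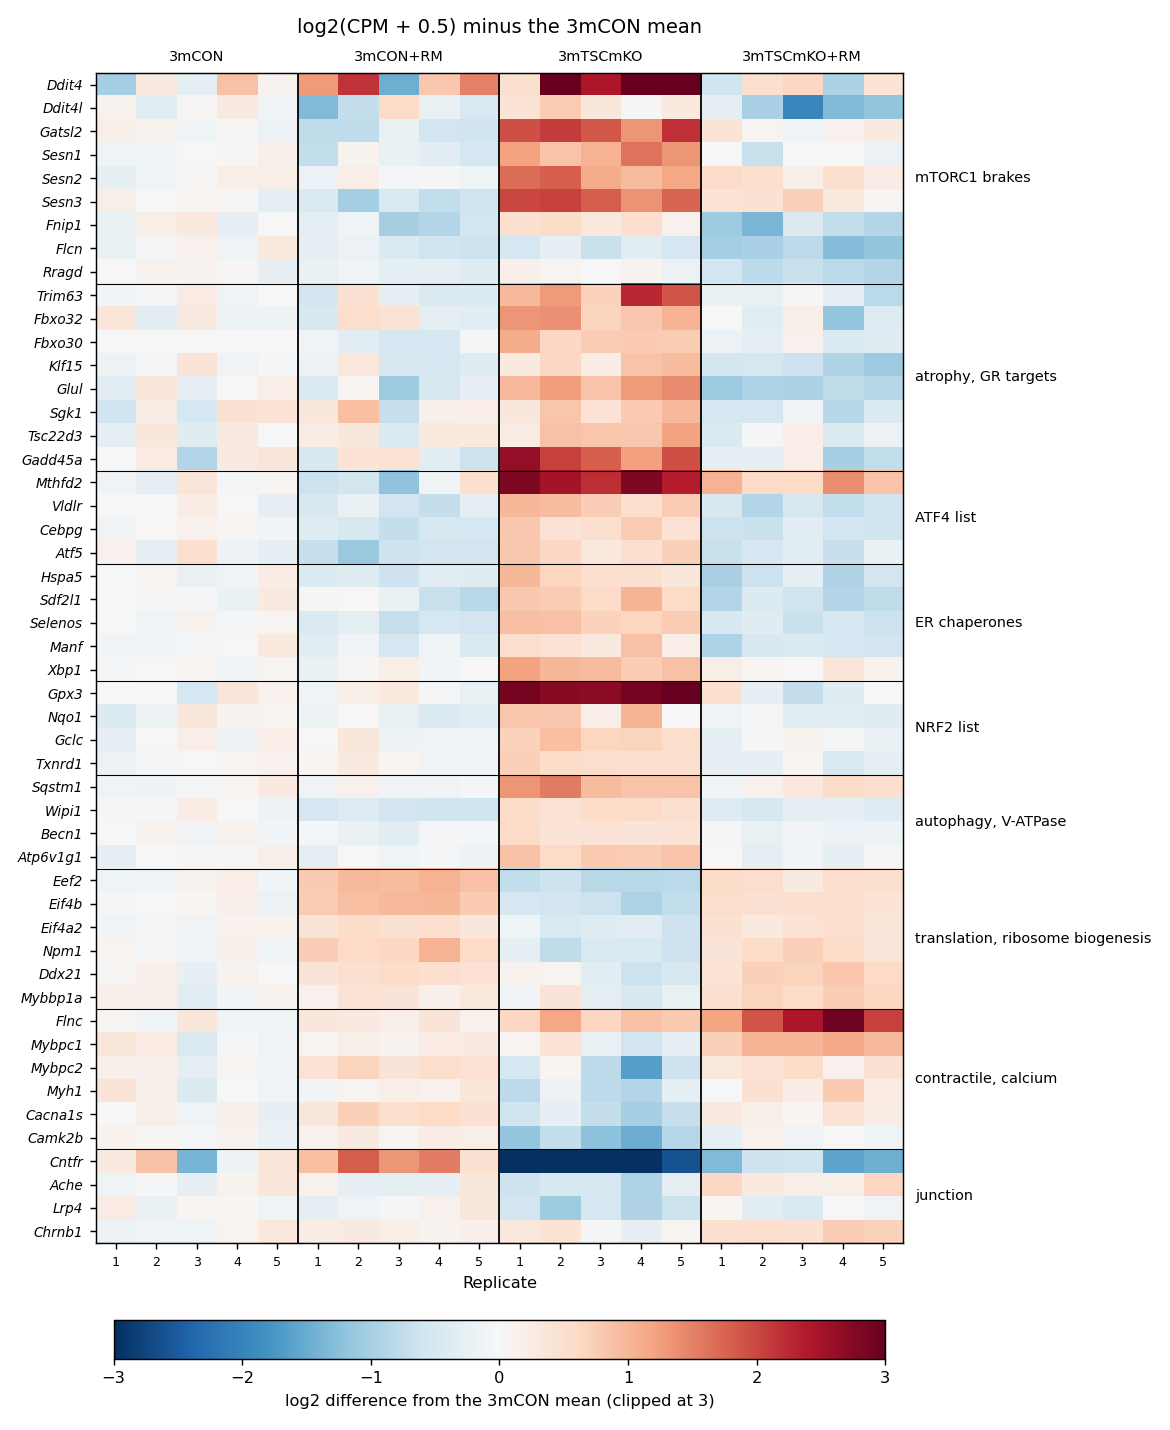
Log2(CPM + 0.5) of 50 genes in the 20 libraries of 3-month mice, minus the mean of 3mCON, clipped at 3 in either direction, with libraries in columns by group and genes in rows by role. In 3mTSCmKO the brakes, atrophy, ATF4, chaperone, NRF2 and autophagy rows are mostly red and the translation rows blue, and in 3mTSCmKO+RM the former are near white or blue and the latter red.

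Of 48 tested initiation and elongation factors, 16 rose and 3 fell (median 0.17), with 10 higher without the 2 libraries that stood apart and 1 lower without 3mTSCmKO replicate 1 or 3mTSCmKO+RM replicate 5. Eef2 (ENSMUSG00000034994, chromosome 10, 81176631 to 81182498), the elongation factor that moves the ribosome along, was at 889, 970.3, 830.4, 831 and 846 CPM in 3mTSCmKO and 2188, 2133, 1789, 2161 and 2082 CPM in 3mTSCmKO+RM (log2 fold change 1.25, SE 0.11, adjusted p = 7.47e-11). Eif4b (ENSMUSG00000058655, chromosome 15, 102073773 to 102097173), a cofactor of the initiation helicase and a target of S6 kinase, went from 269, 261, 245, 202 and 229.99 to 552, 529, 536, 535 and 512 CPM (log2 fold change 1.14, SE 0.11, adjusted p = 2.38e-10). In both genes the vehicle libraries lay below 3mCON (1367 to 1715 and 338 to 429.8 CPM) and the treated libraries above it. Eif4a2, a helicase of initiation, (0.79, adjusted p = 8.93e-06) and the start-site factor Eif1 (0.59, adjusted p = 0.000134) also rose, although Eif1 shares 14.5% of its 31-base sequences with other genes. The subunit Eif3a rose (0.61, adjusted p = 0.00737), but gave 0.47 (adjusted p = 0.0985) without the 2 libraries. In 3mCON, 5 members rose with rapamycin, among them Eef2 (0.92, adjusted p = 2.41e-06), Eif4b (0.89, adjusted p = 2.41e-06) and Eif1 (0.45, adjusted p = 0.0426).

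Of 50 tested ribosome biogenesis genes, 15 rose and 1 fell (median 0.19), and 7 rose without the 2 libraries that stood apart. Npm1 (ENSMUSG00000057113, chromosome 11, 33152287 to 33163206), nucleophosmin of the nucleolus, was at 232, 165, 205, 206 and 182 CPM in 3mTSCmKO and 370.5, 412, 461, 414 and 361 CPM in 3mTSCmKO+RM (log2 fold change 1.03, SE 0.21, adjusted p = 0.000251). Ddx21, a nucleolar helicase, went from 59, 58.1, 44, 35.3 and 39.1 to 73.6, 91.1, 88.3, 99.4 and 83.5 CPM (log2 fold change 0.89, SE 0.14, adjusted p = 6.92e-06). The treated libraries were apart from the vehicle libraries in both cases. Mybbp1a (0.73, adjusted p = 6.31e-05) and Tsr1 (0.71, adjusted p = 0.000181) rose, and Bms1 fell (-0.54, adjusted p = 0.000765). Few genes of cytosolic ribosomal proteins passed, with 2 higher and 1 lower of 79 (median 0.13). Those of mitochondrial ones were 6 higher and 10 lower of 78 (median -0.09), 7.69% and 12.8%, shares below and close to those of all genes. Of the mitochondrial ones 4 were lower without the 2 libraries, 5 without 3mTSCmKO replicate 4 and 6 without 3mTSCmKO+RM replicate 5.

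Of 31 tested entries of purine and pyrimidine synthesis and salvage, in which Ppat has 2 gene identifiers, 9 rose and 4 fell (median 0.20). Impdh2 (ENSMUSG00000062867, chromosome 9, 108560286 to 108565584), the rate-limiting enzyme of guanine nucleotide synthesis, went from 28.1, 32.1, 26.7, 27 and 28.2 to 58, 60.1, 48.9, 56.4 and 54.6 CPM (log2 fold change 0.97, SE 0.12, adjusted p = 4.68e-08). Uck2, of pyrimidine salvage, (0.84, adjusted p = 0.000145) and Cad, which starts pyrimidine synthesis and is an S6 kinase target, (0.72, adjusted p = 0.000264) rose without overlap. The pentose phosphate pathway had 1 of 8 genes lower (median 0.05), a share close to that of all genes, and 0 higher (0 at an unadjusted p below 0.05, 0 by DESeq2).

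Polyamine genes changed in opposite directions within 1 pathway. Amd1 (ENSMUSG00000075232, chromosome 10, 40287458 to 40302186), which makes the aminopropyl donor, was at 713, 758, 699, 1097 and 812 CPM in 3mTSCmKO and 257, 173, 211, 129.6 and 199.6 CPM in 3mTSCmKO+RM (log2 fold change -2.07, SE 0.27, adjusted p = 3.23e-07). The treated values lay below the 396 to 1103 CPM of 3mCON as well. Srm (ENSMUSG00000006442, chromosome 4, 148591503 to 148594993), spermidine synthase, which uses that donor, went from 4.28, 4.70, 5.55, 4.93 and 5.69 to 10.8, 11.5, 10.9, 16.1 and 12.6 CPM (log2 fold change 1.30, SE 0.17, adjusted p = 3.95e-07). The antizymes Oaz1 (-0.56, adjusted p = 0.00268) and Oaz2 (-0.55, adjusted p = 0.000179), which restrain polyamine synthesis, fell. In all, 3 of 11 tested members rose and 3 fell (median -0.13).

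Of 46 tested sarcomere and fiber type genes, 19 rose and 6 fell (median 0.36), and 12 rose without the 2 libraries that stood apart. Flnc (ENSMUSG00000068699, chromosome 6, 29433256 to 29461883), the Z-disc filamin, was at 722, 1043, 713, 862 and 808 CPM in 3mTSCmKO and 1059.8, 1716, 2527, 3517 and 1931 CPM in 3mTSCmKO+RM (log2 fold change 1.37, SE 0.28, adjusted p = 0.000286). It had already been above 3mCON before rapamycin, where it was at 423 to 589.5 CPM. Mybpc1 (ENSMUSG00000020061, chromosome 10, 88518279 to 88605152), slow myosin-binding protein C, went from 3936, 4876, 3148, 2490.4 and 3083 to 6074, 7519, 7439, 8184 and 7228 CPM (log2 fold change 1.06, SE 0.17, adjusted p = 9.19e-06). Its fast counterpart Mybpc2 (1.0, adjusted p = 2.58e-05), the related Mybph (2.50, adjusted p = 0.00308) and the intermediate filament Des (0.67, adjusted p = 1.59e-05) rose without overlap. For Mybph, 3mTSCmKO+RM replicate 4 was at 321.7 CPM and the other 4 treated libraries at 62.7 to 86.1 CPM, and without it the value was 1.76 (adjusted p = 0.0314). Without 3mTSCmKO replicate 2 it was 3.22 (adjusted p = 0.000477). The fast myosin Myh1 rose from a range of 5153 to 8452 CPM to one of 9327 to 16372 CPM (0.91, adjusted p = 0.00147).

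Myh4, the heavy chain of the fastest fibers, was at 35467, 55821, 28464, 16581 and 32713 CPM in 3mTSCmKO and 47168, 63106, 64865, 74048 and 58227 CPM in 3mTSCmKO+RM (log2 fold change 0.86, SE 0.21, adjusted p = 0.00233). The groups overlapped, replicate 4 was the lowest of 3mTSCmKO, and without the 2 libraries that stood apart Myh4 gave 0.58 (adjusted p = 0.064). Myh1 and Myh4 share 37.7% and 30% of their 31-base sequences with other genes, chiefly of the same family, so the authors' counting could divide reads among them. In the other direction, Myl4 (ENSMUSG00000061086, chromosome 11, 104550663 to 104595753), the light chain of fetal and atrial muscle, fell from 74.4, 76.3, 83.6, 57.1 and 82.9 to 24.9, 31.8, 27.8, 28.1 and 35.3 CPM (log2 fold change -1.34, SE 0.24, adjusted p = 6.15e-05) and stayed above 3mCON, at 5.87 to 12.8 CPM. Igfn1, a Z-disc protein, was at 1441, 2266, 1447, 269.6 and 1399.5 CPM and 447, 371, 627, 393 and 459.8 CPM (log2 fold change -1.57, SE 0.36, adjusted p = 0.00141). Replicate 4 of 3mTSCmKO was below all treated libraries, and the other 4 were above them. Tcap, telethonin, fell (-0.61, adjusted p = 0.000772).

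Of 34 tested calcium handling genes, 9 rose and 4 fell (median -0.02), with 4 higher without the 2 libraries. Cacna1s, the voltage sensor of excitation-contraction coupling, rose from a range of 926 to 1564 CPM to one of 1925 to 2516 CPM (0.86, adjusted p = 4.56e-05). Camk2b, a calcium-dependent kinase, went from 97.5, 132, 93.1, 78.1 and 120.3 to 179, 240.2, 203, 218 and 199.7 CPM (log2 fold change 1.0, SE 0.16, adjusted p = 7.5e-06), a range that overlapped the 189 to 234 CPM of 3mCON. Pvalb, the calcium buffer of fast fibers, fell from 9779.8, 10761, 11044, 8397 and 12430.3 to 6673, 6117, 6404, 5892 and 7275 CPM (log2 fold change -0.70, SE 0.20, adjusted p = 0.00927). All treated libraries were below the 8795 to 14353 CPM of 3mCON. Calm3, a calmodulin gene, fell (-0.66, adjusted p = 0.000117).

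Of 32 tested neuromuscular junction and denervation genes, 9 rose (median 0.31) and 0 fell (2 at an unadjusted p below 0.05, 1 by DESeq2). Cntfr (ENSMUSG00000028444, chromosome 4, 41657498 to 41697089), the receptor of ciliary neurotrophic factor, was at 4.74, 5.10, 5.40, 7.74 and 11 CPM in 3mTSCmKO and 27.9, 45.3, 45.9, 23.2 and 25.1 CPM in 3mTSCmKO+RM (log2 fold change 2.28, SE 0.34, adjusted p = 4.58e-06). It remained lower than in 3mCON (-1.24, adjusted p = 0.00542), which held 26.5 to 129.7 CPM. Ache, acetylcholinesterase, went from 34.1, 38.1, 38.1, 27.6 and 43.7 to 81.7, 65.5, 61, 60.1 and 83.3 CPM (log2 fold change 0.95, SE 0.19, adjusted p = 0.000188), and Lrp4, the agrin receptor, from a range of 9.47 to 14.2 CPM to one of 14.8 to 21.2 CPM (0.60, adjusted p = 0.00142). Myog, myogenin, which drives the denervation program, was low throughout, at 0.395, 0.523, 1.08, 1.47 and 0.936 and 1.67, 4.62, 7.60, 2.75 and 2.31 CPM (log2 fold change 2.02, SE 0.40, adjusted p = 0.000177). For these 4 genes every treated library was above every vehicle library.

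The receptor subunit Chrnb1 rose from 45.5, 48.3, 35.3, 30.6 and 38 to 50.7, 52, 49.5, 60.2 and 58.5 CPM (log2 fold change 0.46, SE 0.12, adjusted p = 0.00548), and not without the 2 libraries that stood apart, with 0.31 (adjusted p = 0.124). The subunit Chrna1 rose (0.46, adjusted p = 0.0286), but its call was lost without any 1 of 5 libraries (3mTSCmKO replicates 1, 2 and 4, 3mTSCmKO+RM replicates 1 and 4). Without 3mTSCmKO+RM replicate 4 it was 0.39 (adjusted p = 0.093). The fetal subunit Chrng was at 0 to 0.144 and 0.0464 to 0.294 CPM and did not pass (1.05, adjusted p = 0.332), nor did Runx1, which is induced by denervation (0.35, adjusted p = 0.292).

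Of 42 tested genes of glycolysis, glycogen and glucose uptake, 15 fell and 4 rose (median -0.16, 2 higher without the 2 libraries that stood apart). Pfkfb3, which makes the activator of phosphofructokinase, was at 810.1, 998, 599, 154 and 588 CPM in 3mTSCmKO and 345, 123, 74.2, 119 and 202 CPM in 3mTSCmKO+RM (log2 fold change -1.87, SE 0.44, adjusted p = 0.00164), with replicate 4 of 3mTSCmKO within the treated range. Ldhb, a lactate dehydrogenase subunit, fell from a range of 139.99 to 481 CPM to one of 91.5 to 148 CPM (-1.14, adjusted p = 6.59e-05). Ppp1r3a, which targets a phosphatase to glycogen, went from 932, 1073, 829, 612 and 706 to 511, 367, 460.3, 451 and 415 CPM (log2 fold change -0.91, SE 0.20, adjusted p = 0.0005), and Ugp2, which makes the donor for glycogen, fell (-0.80, adjusted p = 0.000213). The glucose carrier Slc2a1 fell from a range of 14.6 to 21.2 CPM to one of 9.62 to 11.2 CPM (-0.75, adjusted p = 0.000512). Gpi1, phosphoglucose isomerase, rose (0.63, adjusted p = 4.9e-05). Hif1a, a regulator of glycolytic genes, did not pass (-0.18, adjusted p = 0.312).

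Of 33 tested genes of the TCA cycle and pyruvate entry, 9 fell and 2 rose (median -0.07), with 2 lower without the 2 libraries that stood apart, 4 without any 1 of 3mTSCmKO replicates 4 and 5 and 3mTSCmKO+RM replicates 4 and 5, and 5 under upper-quartile scaling. Got1 of the malate-aspartate shuttle fell (-0.79, adjusted p = 1.7e-05). Among 24 PGC-1 and partner transcription factors 7 fell (median -0.26), or 3 without those libraries, and 0 rose (3 at an unadjusted p below 0.05, 0 by DESeq2). Perm1, a muscle regulator of this group, fell from 171, 193, 249, 349.6 and 294 to 166, 151, 154, 104 and 125 CPM (log2 fold change -0.84, SE 0.20, adjusted p = 0.00154). Ppargc1a was at 42.4 to 54.2 and 34.1 to 144 CPM and did not pass (0.35, adjusted p = 0.504). Esrra fell (-0.34, adjusted p = 0.0433) by a margin that was lost without any 1 of 6 libraries, for example -0.24 (adjusted p = 0.193) without 3mTSCmKO replicate 4. The other 5 were 3mTSCmKO replicate 5 and 3mTSCmKO+RM replicates 2 to 5. Of 37 subunits of respiratory complex I, 1 fell (median -0.20) and 0 rose (1 at an unadjusted p below 0.05, 0 by DESeq2). Of 42 in complexes II to V, 3 fell (median -0.22) and 0 rose (1 at an unadjusted p below 0.05, 0 by DESeq2). Both shares of fallen subunits were below the 13% of all genes. Without any 1 of 3mTSCmKO replicates 3, 4 and 5 and 3mTSCmKO+RM replicates 3, 4 and 5 none of these subunits passed, and without 3mTSCmKO+RM replicate 2 only 1 in complexes II to V. Fatty acid uptake and oxidation had 3 higher and 4 lower of 37 (median 0.01), shares close to those of all genes, or 6 higher and 1 lower without 3mTSCmKO replicate 4 and 1 higher without 3mTSCmKO+RM replicate 1, with Acsl6 among those that fell (-0.86, adjusted p = 7.19e-07).

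Of 27 tested genes of sterol synthesis and uptake, 7 fell (median -0.19) and 0 rose (0 at an unadjusted p below 0.05, 0 by DESeq2). Insig1, the sterol-regulated anchor of SREBP, went from 38, 30.5, 34.3, 34 and 26.9 to 16.4, 11.9, 17.9, 13.6 and 14.4 CPM (log2 fold change -1.14, SE 0.17, adjusted p = 3.65e-06), and Sc5d (-0.80, adjusted p = 4.27e-08) and Fdps (-0.56, adjusted p = 0.00106) of the synthesis pathway fell. Srebf2, the transcription factor of this branch, was at the threshold (-0.37, adjusted p = 0.0476). Its call was lost without any 1 of 7 libraries (3mTSCmKO replicates 2, 3 and 5, 3mTSCmKO+RM replicates 2 to 5), with -0.28 (adjusted p = 0.171) without 3mTSCmKO+RM replicate 3. Fatty acid and triglyceride synthesis had 3 higher and 3 lower of 25 (median 0.06), shares close to those of all genes, or 5 higher without 3mTSCmKO replicate 4. Acaca, acetyl-CoA carboxylase, rose from 33.9, 31.9, 38, 35.5 and 24.6 to 48.9, 48.9, 63.4, 60.3 and 106 CPM (log2 fold change 1.0, SE 0.19, adjusted p = 9.12e-05), and Lpin2, a phosphatidate phosphatase, fell (-0.99, adjusted p = 0.000196). Srebf1 did not pass (0.30, adjusted p = 0.159), except without 3mTSCmKO replicate 2, at 0.48 (adjusted p = 0.0166). The sterol element core TCACNCCAC stood in 1 of 20 windows of the sterol list, against 1.37% of all genes, and in 0 of the 6 windows of those that fell.

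Of 50 tested collagens and matrix genes, 6 rose, a share close to that of all genes, and 1 fell (median 0.38). Those higher were 3 without the 2 libraries that stood apart or without any 1 of 3mTSCmKO replicates 1, 2 and 4 and 3mTSCmKO+RM replicate 2, and 2 without any 1 of 3mTSCmKO+RM replicates 3, 4 and 5. Lox, which crosslinks collagen, was the one that fell, from 123, 116, 104, 64.2 and 74.2 CPM in 3mTSCmKO to 26.8, 30.9, 48.9, 39.2 and 44.1 CPM in 3mTSCmKO+RM (log2 fold change -1.34, SE 0.29, adjusted p = 0.000554). Scx, a tendon transcription factor, went from 1.19, 1.11, 2.16, 1.73 and 1.51 to 6.21, 7.56, 4.69, 6.36 and 7.41 CPM (log2 fold change 2.04, SE 0.29, adjusted p = 1.46e-06), with every treated library above every vehicle one. In these bulk samples more cells of a type and more RNA per cell cannot be told apart. Summed tendon markers were 177 to 478 CPM in 3mTSCmKO and 320.1 to 613 CPM in 3mTSCmKO+RM, with 2 of 8 tested markers higher. Summed fibroblast markers were 689 to 1181 and 998 to 1744 CPM, with 1 of 5 higher. The part of these markers in the matrix values was not tested.

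Of 21 tested cytokine, complement and acute phase genes, 8 rose and 1 fell (median 0.41), with 5 higher without the 2 libraries that stood apart, without 3mTSCmKO replicate 4 or without 3mTSCmKO replicate 5. Cxcl10 (ENSMUSG00000034855, chromosome 5, 92346638 to 92348889), a chemokine, was at 0.0659, 0.131, 0.154, 0.224 and 0.216 CPM in 3mTSCmKO and 2.23, 6.30, 9.76, 3.18 and 2.02 CPM in 3mTSCmKO+RM (log2 fold change 4.73, SE 0.72, adjusted p = 5.2e-06). Tnfaip3, an inhibitor of NF-kappaB, went from 5.07, 4.77, 5.45, 4.00 and 4.17 to 10.8, 14, 13.8, 10.2 and 8.89 CPM (log2 fold change 1.30, SE 0.21, adjusted p = 7.62e-06). C4b, a complement component, rose from a range of 3.49 to 5.92 CPM to one of 6.58 to 20.2 CPM (1.60, adjusted p = 0.00296), but it shares 48.3% of its 31-base sequences with other genes, mainly C4a. Cish, a cytokine feedback inhibitor, was at 4.55, 1.05, 3.50, 1.98 and 1.48 and 24.2, 31.4, 9.92, 3.14 and 5.93 CPM (2.60, adjusted p = 0.00381), with overlap between the groups. The interferon and MHC class I list, of which Cxcl10 is a member, had 1 higher and 2 lower of 32 (median -0.15), shares below those of all genes. Summed macrophage markers were 68.3 to 133 CPM in 3mTSCmKO and 101 to 205 CPM in 3mTSCmKO+RM, with 2 of 9 higher. Their part in the immune values was not tested. S100a9 fell (-3.52, adjusted p = 0.000836), but not without 3mTSCmKO replicate 4, where it gave -1.57 (adjusted p = 0.08). Summed lymphocyte markers were 0.864 to 13.7 and 0.431 to 0.966 CPM. The highest value was that of 3mTSCmKO replicate 3. Both markers tested, Cd79a (-2.20, adjusted p = 0.00953) and Ms4a1 (-2.66, adjusted p = 0.00655), passed as lower. Without that library Cd79a did not pass, at -1.24 (adjusted p = 0.157), and Ms4a1 did not reach the minimum for testing. Summed endothelial markers were 346 to 399 and 353 to 462 CPM, and of the endothelial, smooth muscle, adipocyte and Schwann cell markers none passed.

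Of 22 tested mitosis genes, 3 fell (median -0.27) and 0 rose (0 at an unadjusted p below 0.05, 0 by DESeq2). The share that fell (13.6%) was close to that of all genes (13%). Tpx2 (ENSMUSG00000027469, chromosome 2, 152847964 to 152895321), a spindle assembly factor, was at 60.4, 60.4, 48.9, 24.4 and 40.2 CPM in 3mTSCmKO and 1.99, 2.48, 2.70, 1.73 and 3.26 CPM in 3mTSCmKO+RM (log2 fold change -4.28, SE 0.31, adjusted p = 8.76e-13). The treated libraries were also below the 4.98 to 7.44 CPM of 3mCON (-1.28, adjusted p = 0.0023). Top2a, a marker of dividing cells, was at 0.659 to 3.84 and 0.649 to 0.966 CPM and did not pass (-1.13, adjusted p = 0.0939), with -1.26 (adjusted p = 0.0445) when insert size was a term in a fit without 9mTSCmKO+RM replicate 5, whose label gives none. Mki67 did not reach the minimum for testing. DNA replication had 2 higher and 4 lower of 29 (median 0.02), 6.90% and 13.8%, shares below and close to those of all genes. None of those lower passed without the 2 libraries or without 3mTSCmKO+RM replicate 4, 1 passed without 3mTSCmKO+RM replicate 5 and 2 without any 1 of 3mTSCmKO replicates 1, 3 and 5. Without 3mTSCmKO replicate 2, 4 were higher. Ccne2, cyclin E2, rose from 4.68, 3.92, 3.60, 4.93 and 4.25 to 13.2, 12.1, 13.3, 11.3 and 12.3 CPM (log2 fold change 1.54, SE 0.13, adjusted p = 2.83e-11) and Mcm4, of the replicative helicase, from 5.14, 4.44, 4.16, 3.65 and 3.42 to 7.33, 7.48, 7.12, 8.52 and 7.12 CPM (log2 fold change 0.86, SE 0.14, adjusted p = 1.94e-05). Motifs of cell cycle promoters were common in the windows of the mitosis list: TTTGAA stood in 15 of 19, against 14.3% of all genes, and CCAAT in 13 of 19, against 42.8%. Neither stood in the window of the 1 fallen gene that has one.

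Among 18 tested myogenic factors and satellite cell genes, 2 rose and 3 fell (median 0.09). These shares, 11.1% and 16.7%, were close to the 10.6% and 13% of all genes. Cdh15, M-cadherin of satellite cells and fibers, went from 14.2, 18.7, 12.1, 12.3 and 12.2 to 27.1, 31.6, 27.3, 44.5 and 37.4 CPM (log2 fold change 1.28, SE 0.16, adjusted p = 1.28e-07), and Eya1, a cofactor of fast fiber genes, from 53.7, 59.8, 53.4, 36 and 43.9 to 23.4, 18, 29.9, 15.2 and 14.9 CPM (log2 fold change -1.28, SE 0.17, adjusted p = 4.64e-07). Summed satellite cell markers were 17 to 24.4 CPM in 3mTSCmKO and 32.4 to 52.3 CPM in 3mTSCmKO+RM, with 1 of 4 (Cdh15) called. They were also apart in control muscle, at 22.1 to 26.38 CPM in 3mCON and 31.35 to 37.08 CPM in 3mCON+RM. The part of these markers in the values of the list was not tested. The circadian clock list had 2 higher and 4 lower of 20 (median -0.21), the former a share close to that of all genes. Without 3mTSCmKO+RM replicate 5 it had 1 higher and 2 lower, and 1 higher also without 3mTSCmKO+RM replicate 4 or without the 2 libraries. Further, 4 of 16 metallothioneins and zinc transporters fell (median -0.24) while 0 rose (2 at an unadjusted p below 0.05, 0 by DESeq2).

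Where the treated muscle lay relative to untreated control muscle was examined next. These comparisons share libraries with the one above, so only their own values are given. 3mTSCmKO differed from 3mCON in 2676 genes (19.8%) and 3mTSCmKO+RM differed from 3mCON in 2260 (16.7%). Of the 19 V-ATPase subunits, 6 were higher than in 3mCON before rapamycin and none passed after it (2 higher and 2 lower at an unadjusted p below 0.05). In the ATF4 list, 12 were higher and 2 lower before, and 2 higher and 6 lower after. Of the 17 glucocorticoid receptor targets, 8 were higher before (median 0.75) and 3 were lower after (median -0.06).

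Other groups ended away from control muscle. Over all genes, 19.8% differed from 3mCON before rapamycin and 16.7% after it, in either direction. Sarcomere genes were 6 higher and 4 lower before, together a share close to that of all genes, and 14 and 2 after. Of the ribosome biogenesis genes, 2 were higher before and 13 after, when 1 was lower. Rapamycin gave this list a median of 0.15 in 3mCON, against 0.19 in 3mTSCmKO. In 3mCON 0 of its genes passed by edgeR's quasi-likelihood test, and 14 were higher and 0 lower at an unadjusted p below 0.05. Of the genes of branched-chain amino acid breakdown, 2 were higher and 6 lower before, and 0 and 11 after. Rapamycin also lowered 4 genes of this list in 3mCON. Single genes that lay beyond control muscle after rapamycin were Glul (-0.94, adjusted p = 0.000632), Fnip1 (-0.88, adjusted p = 0.00213), Amd1 (-1.71, adjusted p = 1.25e-05), Tpx2 (-1.28, adjusted p = 0.0023) and Eya1 (-1.62, adjusted p = 9.17e-09) below it, and Flnc (2.19, adjusted p = 5.39e-07), Srm (0.93, adjusted p = 0.000118) and Cxcl10 (3.79, adjusted p = 8.99e-05) above it.

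**Figure D4:**
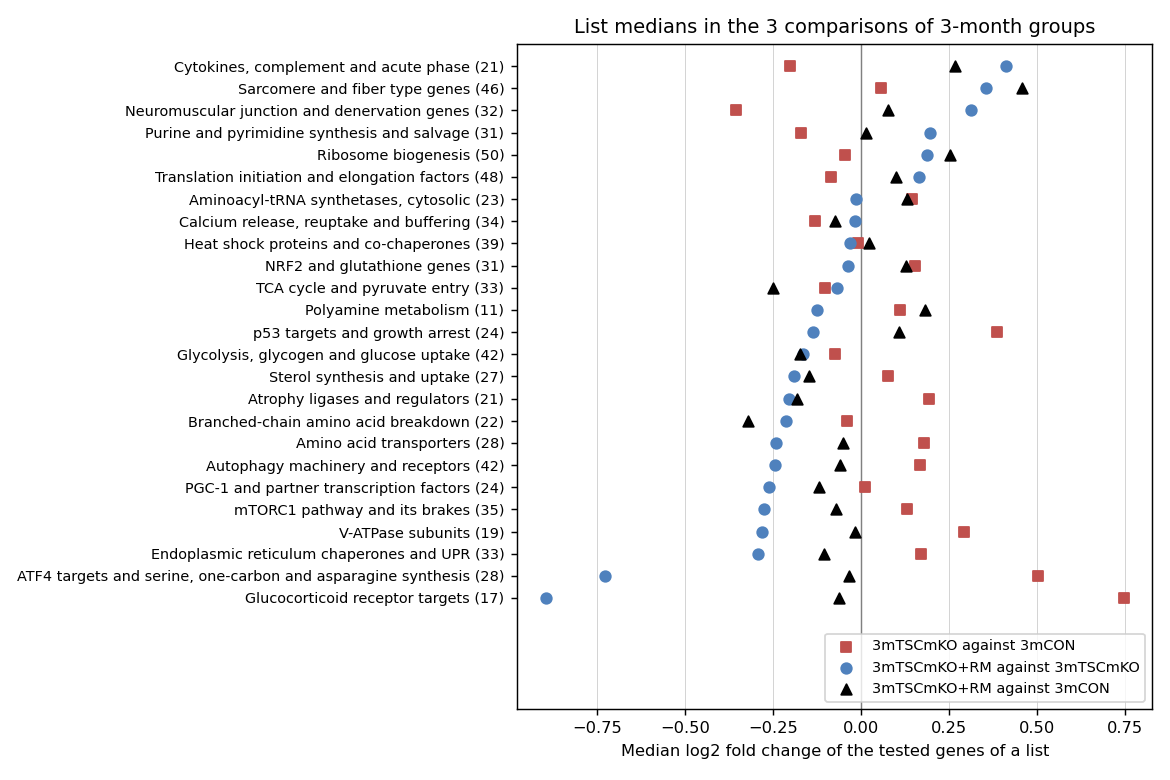
Median log2 fold change of the tested genes of 25 lists, with their number in parentheses, for 3mTSCmKO against 3mCON (squares), 3mTSCmKO+RM against 3mTSCmKO (circles) and 3mTSCmKO+RM against 3mCON (triangles), which share libraries. The lists shown are those with the larger shares of genes called in 3mTSCmKO+RM against 3mTSCmKO, so the comparison drawn as circles also chose them. Glucocorticoid receptor targets and ATF4 targets lie far right before rapamycin and near 0 after it, while sarcomere genes lie right of 0 after it.

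Whether rapamycin acted differently in 3mTSCmKO than in 3mCON was tested as an interaction, which shares no library between its 2 arms. It passed for 467 genes (3.45%), 184 higher and 283 lower in 3mTSCmKO, for 368 without the 2 libraries that stood apart and for 1194 (446 higher, 748 lower) when only the 4 groups were fitted. Large differences were those of Ddit4 (-4.40, adjusted p = 0.000424), C130080G10Rik (-4.05, adjusted p = 0.00258), Tpx2 (-3.27, adjusted p = 6.02e-06) and Gpx3 (-2.99, adjusted p = 9.44e-08) on the lower side. Gm10851 was there too (-3.88, adjusted p = 0.0036), but not without 3mCON+RM replicate 4 (-3.0, adjusted p = 0.144). On the higher side were Cish (3.77, adjusted p = 0.0141), Slc47a1 (2.28, adjusted p = 9.44e-08), 2310020H05Rik (3.58, adjusted p = 6.51e-05) and Aqp4 (3.23, adjusted p = 3.32e-07). Of the 21 atrophy genes, 6 passed as lower, as did 5 of 17 glucocorticoid receptor targets, 6 of 24 growth arrest genes, 5 of 28 in the ATF4 list and 5 of 33 endoplasmic reticulum genes. In 3mCON Trim63 was at -0.20 (adjusted p = 0.938), Glul at -0.41 (adjusted p = 0.522) and Gadd45a at -0.12 (adjusted p = 0.978), none past the threshold.

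For translation factors the interaction passed in 0 of 48 genes by edgeR's quasi-likelihood test (2 higher and 3 lower at an unadjusted p below 0.05). Eef2 responded by 1.25 in 3mTSCmKO and 0.92 in 3mCON (0.33, adjusted p = 0.306), and Eif4b by 1.14 and 0.89 (0.26, adjusted p = 0.447). The difference between genotypes was within the error for both genes, which does not show that it is absent.

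The response at 3 months was also set against that in 9mTSCmKO, where the study describes a severe phenotype. The interaction passed for 259 genes (1.91%), 147 higher and 112 lower at 3 months. Age and library insert size move together in this series (the 3-month libraries had 175 to 239 nt and the 9-month ones 223 to 308 nt), and with insert size as a term, without 9mTSCmKO+RM replicate 5, 244 passed. The count rested on single libraries, as 112 passed without 9mTSCmKO replicate 3 and 490 without 9mTSCmKO replicate 5. Without the 2 libraries that stood apart it was 293, with only the 4 groups fitted 108, without the filter on low counts 141 and by DESeq2 494. Tpx2 fell further at 3 months, with -4.28 against -2.33 (-1.95, adjusted p = 0.00904). Mrvi1, which binds the inositol trisphosphate receptor, went from 62.5, 78, 64, 104 and 55.6 to 18.5, 16, 23.5, 14.9 and 18.8 CPM at 3 months (log2 fold change -1.99, SE 0.17, adjusted p = 1.43e-11) and fell by less at 9 months (-0.51, adjusted p = 0.0129), with a difference of -1.48 (adjusted p = 0.000237). Casr, the calcium-sensing receptor, fell from a range of 43.8 to 84 CPM to one of 16.7 to 38.5 CPM at 3 months (-1.38, adjusted p = 7.73e-05) but not at 9 months (-0.05, adjusted p = 0.907), a difference of -1.33 (adjusted p = 0.0409). Exph5 did likewise (-1.43, adjusted p = 5.21e-05), with 0.02 (adjusted p = 0.96) at 9 months and a difference of -1.45 (adjusted p = 0.0271). Both differences were fragile. That of Casr was lost without any 1 of 14 of the 20 libraries, all but 3mTSCmKO replicate 4, 3mTSCmKO+RM replicate 1, 9mTSCmKO replicates 2, 4 and 5 and 9mTSCmKO+RM replicate 5, for example without 9mTSCmKO replicate 3 (-1.21, adjusted p = 0.0962). That of Exph5 was lost without any 1 of 7 (3mTSCmKO replicate 2, 3mTSCmKO+RM replicates 2, 4 and 5, 9mTSCmKO replicates 1 and 3 and 9mTSCmKO+RM replicate 3), for example without the first of these (-1.25, adjusted p = 0.0738). Irs2 (-1.16, adjusted p = 0.016) and Glul (-1.14, adjusted p = 0.0237) also passed as lower at 3 months, Glul not without 9mTSCmKO replicate 3 (-1.05, adjusted p = 0.0599). Klf12, a transcriptional repressor, differed in the same direction (-1.66, adjusted p = 0.0108), as it was at -0.05 (adjusted p = 0.919) at 3 months and rose at 9 months (1.61, adjusted p = 1.4e-05).

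On the other side were genes that fell with rapamycin at 9 months and not at 3 months. Ncam1, an adhesion molecule raised by denervation, was at 7.05, 11.8, 11.8, 11 and 10.3 CPM in 3mTSCmKO and 11.2, 17.3, 12.9, 27.7 and 18 CPM in 3mTSCmKO+RM (log2 fold change 0.75, SE 0.18, adjusted p = 0.00198). At 9 months it fell (-0.63, adjusted p = 0.00556), a difference of 1.38 (adjusted p = 0.00209). Wif1 differed likewise (3.46, adjusted p = 0.0351). Ptgs2 (5.10, adjusted p = 0.00131), Krt8 (6.11, adjusted p = 0.0237) and Adh7 (5.38, adjusted p = 3.61e-05) passed too, with means of 10.3, 16.8 and 23.3 CPM in 9mTSCmKO. Their 3-month levels were too low for a fall to be seen, so no difference in response between the ages is read from them. The difference for Krt8 was lost without 3mTSCmKO+RM replicate 4 (5.12, adjusted p = 0.211). That for Wif1 was lost without any 1 of 11 libraries, all but 3mTSCmKO replicates 1, 3 and 4, 3mTSCmKO+RM replicate 1, 9mTSCmKO replicates 1, 2, 4 and 5 and 9mTSCmKO+RM replicate 4, for example without 9mTSCmKO replicate 3 (3.27, adjusted p = 0.0826). Of 32 neuromuscular genes, 5 passed as higher at 3 months (among them Chrng, which reached the minimum for testing only through 9mTSCmKO and from which nothing is read) and 1 as lower, and rapamycin at 9 months itself gave 8 higher and 10 lower. Of 31 NRF2 and glutathione genes, 5 passed as higher at 3 months, with 3 higher and 20 lower at 9 months. For scale, rapamycin at 9 months changed 32.6% of all genes, in either direction, and the interaction with age passed for 1.91%.

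**Figure D5:**
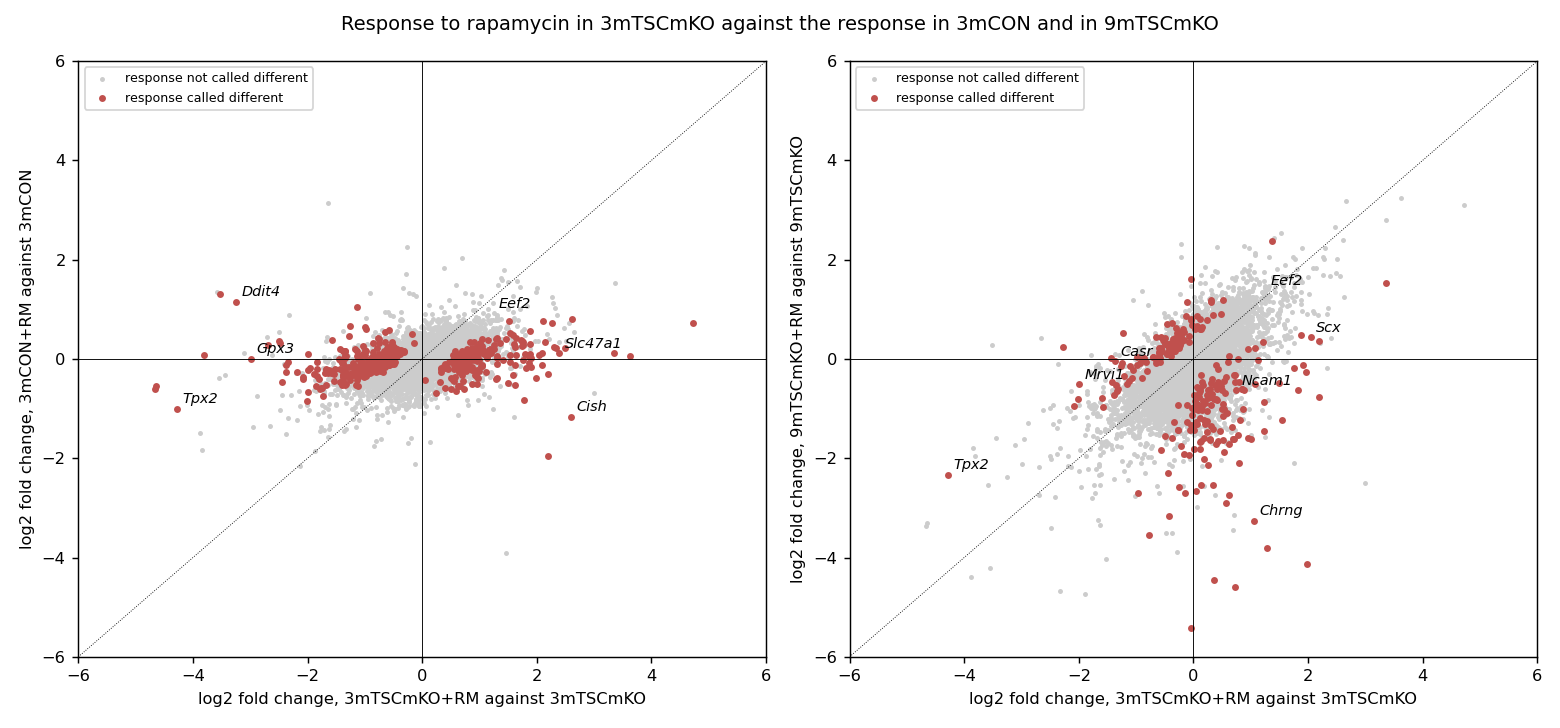
Log2 fold change with rapamycin in 3mTSCmKO (x axis) against that in 3mCON (left, y axis) and in 9mTSCmKO (right, y axis), 1 point per tested gene, with genes whose response passed as different in red and equal responses on the dotted diagonal. In the left panel most red points lie near 0 on the y axis, and in the right panel red points lie on both sides of the diagonal.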

How the data were processed

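RNA was sequenced from EDL muscle in 40 mice of 8 groups of 5, as single-end stranded reads. Per the study's methods, the authors trimmed reads with cutadapt 1.9.1, pseudoaligned them with kallisto 0.43.1 to GRCm38 transcripts, and divided a read that mapped to several transcripts equally among them. The deposited table holds 1 value per gene. They deposited estimated counts, which were already whole numbers, and TPM, which takes transcript length into account and was used only to compare levels between genes. The methods name protein-coding transcripts, yet the table also holds other genes, such as lincRNAs, and its antisense transcripts rest on the stated strand setting. 37 gene symbols occur more than once and 0 columns lacked a label.

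Genes with at least 1 CPM in at least 5 libraries were fitted over all 40 libraries and 8 group means with edgeR 4.0.16 (TMM scaling, robust quasi-likelihood test, Benjamini-Hochberg adjusted p of 0.05 over all genes tested) under R 4.3.3 with limma 3.58.1, and DESeq2 1.42.0 served as an alternative. Depth was 14682801 to 28404440 counts per library in the 10 libraries compared, and low genes are correspondingly less precise. Standard errors are those of the log2 fold change in this fit. P-values measure the spread between mice of 1 cohort.

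The comparison, members and gene lists were chosen with earlier results of these data known. The genes named were, per list, up to 4 with the largest rise and fall past the test, at a group mean of 5 CPM or more and without overlap of the libraries, the 10 largest of all genes in each direction, and the 5 largest of each interaction in each direction. The text gives the leading ones of these and, beyond the rule, genes chosen for their role after their values were seen, among them regulators that did not pass. Alternatives covered scaling, the filter, the tool, the groups fitted, library insert size, a replicate block and leaving out each library. Leaving out 2 libraries together was added after the data were seen, as were the searches for the FoxO element, the glucocorticoid receptor half-site, the chaperone stress element and the ATF4 element in synthetase promoters. The E-box CACGTG was likewise searched in the mTORC1 list (7 of 29 windows) and in ribosome biogenesis (11 of 46), against 11.6% of all genes. Replicate numbers did not pair the samples. Gene coordinates are those of GENCODE M21 on GRCm38, which matched 22813 of 22844 gene identifiers (99.9%). Promoter windows of 250 bases before to 50 after the start, from RefSeq, existed for 10375 of 13523 tested symbols. Shared sequence was counted as 31-base runs of a gene's transcripts found in another gene. In the heat map, 0.5 CPM was added before taking log2 and values were clipped at 3.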

Additional observations from a re-analysis of the deposited data

Results flagged for a closer look

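Single libraries stood away from the other 4 of their group in 30 of 394 sets of 5 values tested among the genes named above (7.61%), by Dixon's criterion for the gap to the nearest value over the range. The criterion is passed by about 1 in 20 such sets if values are normally distributed. CPM values, some of them near 0, need not be, so the 7.61% is not read against that rate. Those in 3mTSCmKO replicate 1 were Epb41l4aos at 0.791 CPM (others 1.11 to 1.23) and Txnrd1 at 135 CPM (others 116 to 121). Those in 3mTSCmKO replicate 2 were Acsl6 at 83.2 CPM (others 55.9 to 61.1), Cad at 10.6 CPM (others 8.25 to 8.94) and Impdh2 at 32.1 CPM (others 26.7 to 28.2). Those in 3mTSCmKO replicate 3 were Cd79a at 5.45 CPM (others 0.648 to 1.502) and Ms4a1 at 8.22 CPM (others 0.216 to 1.18). Those in 3mTSCmKO replicate 4 were Aldh1l2 at 7.84 CPM (others 4.31 to 5.24), Amd1 at 1097 CPM (others 699 to 812), Bms1 at 55.2 CPM (others 74.6 to 80.6), S100a9 at 20.2 CPM (others 0.360 to 3.24), Slc38a2 at 195 CPM (others 128 to 141) and Top2a at 3.84 CPM (others 0.659 to 1.44). Those in 3mTSCmKO replicate 5 were Aen at 60.0 CPM (others 48.2 to 51.2), Dbt at 64.1 CPM (others 61.1 to 62), Krt8 at 0.0360 CPM (others 0 to 0) and Tcap at 1627 CPM (others 1008 to 1079). The one in 3mTSCmKO+RM replicate 1 was Oaz2 at 84.4 CPM (others 69.1 to 73.4). Those in 3mTSCmKO+RM replicate 3 were Cebpg at 67.2 CPM (others 53 to 56.4), Eef2 at 1789 CPM (others 2082 to 2188), Ppargc1a at 144 CPM (others 34.1 to 44.9), Srebf2 at 12.6 CPM (others 17.3 to 19.1) and Tcap at 651 CPM (others 768 to 799). Those in 3mTSCmKO+RM replicate 4 were Mcm4 at 8.52 CPM (others 7.12 to 7.48), Mtor at 101 CPM (others 85.8 to 87.2), Mybph at 322 CPM (others 62.7 to 86.1), Psat1 at 3.30 CPM (others 1.39 to 1.66) and Uck2 at 35.6 CPM (others 17 to 19.3). Those in 3mTSCmKO+RM replicate 5 were Acaca at 106 CPM (others 48.9 to 63.4) and Tfe3 at 17.9 CPM (others 13.4 to 14.7).

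The response to rapamycin differed between 3mTSCmKO and 3mCON for 75 of the named genes by the interaction test of edgeR, and 50 of these calls held without any 1 of the 20 libraries. Their differences in log2 fold change, 3mTSCmKO minus 3mCON, are given by role, those lost without some library are left out, and Gm10851 (-3.88) is given although it was lost without 3mCON+RM replicate 4. More negative in 3mTSCmKO were the mTORC1 brakes Ddit4 (-4.40), Gatsl2 (-1.17) and Sesn1 (-1.07). Among atrophy ligases and glucocorticoid receptor targets were Trim63 (-1.63), Fbxo32 (-1.36), Trim55 (-0.67), Glul (-1.67), Klf15 (-1.14), Sgk1 (-1.36) and Tsc22d3 (-1.14). Growth arrest genes with such a difference were Gadd45a (-2.26), Gadd45g (-2.86) and Trp53inp2 (-0.93). For genes of the ATF4 list and of amino acid transport and breakdown they were Vldlr (-0.97), Slc43a1 (-1.30) and Bcat2 (-1.19). For genes of the endoplasmic reticulum they were Hspa5 (-0.84), Sdf2l1 (-1.40), Selenos (-0.82) and Xbp1 (-0.80). For NRF2, autophagy and lysosome genes they were Gpx3 (-2.99), Gclc (-0.80), Txnrd1 (-0.83), Sqstm1 (-0.78), Becn1 (-0.44) and Npc1 (-1.51). Without the filter on low counts, that of Becn1 did not pass (-0.45, adjusted p = 0.0792). Further ones were Tpx2 (-3.27), Amd1 (-1.71), Myl4 (-1.49), Eya1 (-0.98), Casr (-1.53), Sc5d (-0.83), Lpin2 (-1.17), Mrvi1 (-2.08), Rasd2 (-1.98), Arrdc2 (-2.80), 8430408G22Rik (-2.97) and C130080G10Rik (-4.05). More positive in 3mTSCmKO were Slc47a1 (2.28), Aqp4 (3.23), 2310020H05Rik (3.58), Tceal7 (2.37), Bex1 (1.54), Adamts20 (1.96), Cish (3.77), Tnfaip3 (1.29), Scx (1.96), Ccne2 (1.02), Hspa1l (1.09) and Hspb6 (1.0).

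Between 3mTSCmKO and 9mTSCmKO the interaction passed for 23 of the named genes, and 8 of these calls held without any 1 of the 20 libraries. The difference, 3 months minus 9 months, was negative for Atp6v0a1 (-0.75), Irs2 (-1.16), Klf12 (-1.66), Mrvi1 (-1.48) and Tpx2 (-1.95) and positive for Adh7 (5.38), Ncam1 (1.38) and Ptgs2 (5.10). With only the 4 groups fitted, that of Atp6v0a1 did not pass (-0.76, adjusted p = 0.0627). Those of Casr (-1.33), Exph5 (-1.45), Krt8 (6.11), Wif1 (3.46) and Glul (-1.14) also passed but were lost without single libraries, as given above. Chrng (4.31) passed as well, but it reached the minimum for testing only through the 5 libraries of 9mTSCmKO, none of which could be left out. At 3 months Chrng, Adh7, Ptgs2 and Krt8 were too low for a fall to be seen, so their values show no difference in response between the ages.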

How the results depend on the processing

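The count of genes changed by rapamycin in 3mTSCmKO (3196) stayed within 1.5 times under every alternative, at 2256 to 4211, and at 2621 to 2952 when 1 library was left out (1180 to 1326 higher, 1441 to 1628 lower). Of the 197 named genes, 172 kept their direction and call under all alternatives in which they were tested. The interaction with genotype (467 genes) gave 339 to 447 without 1 library (127 to 168 higher, 211 to 290 lower). It gave 1194 (446 higher, 748 lower) when only its 4 groups were fitted and 121 higher without the filter on low counts. The interaction with age (259 genes) was the least stable. It gave 112 (without 9mTSCmKO replicate 3) to 490 (without 9mTSCmKO replicate 5), with 77 to 255 higher and 35 to 235 lower. It gave 108 (79 higher, 29 lower) with only its 4 groups, 141 (96 higher, 45 lower) without the filter, 494 (281 higher, 213 lower) by DESeq2 and 73 lower under upper-quartile scaling. The causes of these shifts were not tested.

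With the replicate number as a block, 3175 genes passed for rapamycin in 3mTSCmKO, 440 for the interaction with genotype and 234 for that with age. Same-numbered libraries of 3mTSCmKO and 3mTSCmKO+RM did not deviate together (r = -0.054, 0.049, 0.086, -0.032 and 0.003 across genes for numbers 1 to 5), so the numbers give no pairing. Among the named genes that pass for rapamycin in 3mTSCmKO, only the Esrra call was lost with the block.

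Some values that did not pass changed sign. Atf4 was at 0.054 under upper-quartile scaling, 0.0011 with only the 2 groups, 0.0084 with insert size, 0.0019 with the block and -0.036 to 0.037 without 1 library. Adh7 was at 0.015 under upper-quartile scaling, 0.010 by DESeq2, 0.59 without the 2 libraries that stood apart and -0.62 to 0.29 without 1 library. Nfe2l2 was at 0.018 and Klf12 at 0.0055 under upper-quartile scaling. Without 1 library Nfe2l2 ranged from -0.12 to 0.028, Klf12 from -0.094 to 0.0096, Cdkn1a from -0.30 to 0.046, Ppargc1a from -0.24 to 0.51 and Eif4ebp1 from -0.065 to 0.30. Tmem254a, which the rule named for the interaction with age, was at 0.61 in 3mTSCmKO and at -0.029 with insert size as a term.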
